A study of Macaca mulatta with 2 samples.

Results

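The S100 proteins are small calcium-binding proteins, and 10 of their genes were followed here in the optic nerve of the rhesus macaque: *S100B*, *S100A1*, *S100A4*, *S100A6*, *S100A8*, *S100A9*, *S100A10*, *S100A11*, *S100A13* and *S100A16*. They were taken by symbol from a table of 16684 genes, and all 10 were listed. The data were bulk RNA-seq of wild-type, untreated optic nerve, 1 condition with 2 libraries named Rep1 and Rep2. The nerves were left over from eyes collected postmortem for other work, and the paper's methods give an adult male as their source, whereas the deposited design names different macaques for the nerves. Whether the libraries come from 1 animal is thus unknown, and the spread between them may be technical. The values are TPM, the share of all length-corrected reads of a library scaled to 1000000, so levels of different genes can be set against each other within a library. Total RNA of a whole nerve was used, so fewer cells of a type and less RNA per cell cannot be told apart.

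Each S100 protein carries a pair of EF-hands, helix-loop-helix units that hold a calcium ion in the loop, and most members act as dimers that grip a target protein once calcium is bound. *S100B* is known from astrocytes, oligodendrocytes and Schwann cells and is widely used as a marker of glia. *S100A8* and *S100A9* encode calprotectin, a product of neutrophils and monocytes, while *S100A4*, *S100A6*, *S100A10* and *S100A11* are common in connective tissue, vessels and many other cells.

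The second calcium-binding loop shows how the members differ in the part that gives the family its name. The coding sequence of this loop in each member, read from RefSeq transcripts of Mmul_10 and written 5′ to 3′, is given here, with capitals for the codons of loop positions 1, 3, 5 and 12, whose side chains hold calcium in a canonical EF-hand.
S100B: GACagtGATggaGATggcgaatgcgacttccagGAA
S100A1: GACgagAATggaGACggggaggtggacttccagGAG
S100A4: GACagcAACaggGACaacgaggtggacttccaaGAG
S100A6: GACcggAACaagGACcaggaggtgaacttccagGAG
S100A8: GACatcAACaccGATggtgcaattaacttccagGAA
S100A9: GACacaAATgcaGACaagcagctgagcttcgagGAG
S100A10: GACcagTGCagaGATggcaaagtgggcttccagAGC
S100A11: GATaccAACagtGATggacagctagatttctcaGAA
S100A13: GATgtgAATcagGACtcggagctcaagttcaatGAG
S100A16: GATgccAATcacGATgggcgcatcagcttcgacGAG

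In 9 of the 10 members all 4 capitalised codons encode aspartate, asparagine or glutamate. In *S100A10*, whose protein is known to work without calcium, 2 of the 4 do. The proteins translated from the same transcripts ran from 90 residues in *S100A6* to 114 in *S100A9*. Over the 45 pairs of members, the aligned proteins had a median identity of 31.1%, from 20.4% to 57.6%. The highest value was that of *S100B* and *S100A1*, followed by *S100A4* and *S100A6* with 51.1%. The handling of reads with several alignments is not given in the sources used here, so reads that fit more than 1 member could have been counted for either.

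The libraries stood apart. Rep1 listed 6425 genes at 0 (38.5%) and Rep2 listed 2082 (12.5%), and a read counted for 17.2 times as many TPM in Rep1 as in Rep2, so Rep1 rests on fewer reads. All 8 markers of myelinating oligodendrocytes and all 8 of astrocytes were above 0 in both libraries. The summed level of the oligodendrocyte list was 46095 TPM in Rep1 and 212769 in Rep2, and that of the astrocyte list 940 and 5333 TPM. Photoreceptor genes went the other way. Of 6 such genes, 5 were higher in Rep1, with a summed level of 3316 TPM against 5.54 TPM in Rep2. The erythrocyte genes *HBB* and *ALAS2* were also both higher in Rep1, with 4537 against 1097 TPM in sum. The part of these other cells in the S100 values was not tested.

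*S100B*, the glial member, had the highest level of the family. It reached 323 TPM in Rep1 and 2299 in Rep2, a mean of 1311 ± 1397 TPM (SD, n = 2 libraries), which ranked 74th among 14693 genes, those above 0 in Rep1, Rep2 or both (percentile 99.5). Within each library its percentile was 96.3 in Rep1 and 99.8 in Rep2. Its gene is the one member on another chromosome, at positions 186721 to 192889 of chromosome 3 in Mmul_10, on the plus strand. Genes of Schwann cells, which also make *S100B*, were all 5 lower in Rep1. On the log2(TPM + 1) scale 4 of them were at least 2-fold lower, as were 51.3% of all genes. Their sum was 92.9 TPM in Rep1 against 1454 in Rep2, of which *PMP22* made up 82.9 and 1373 TPM. The part of each cell type in the level of *S100B* was not tested.

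The next 4 members were *S100A10*, *S100A1*, *S100A6* and *S100A16*. *S100A10*, the partner of annexin A2 at the cell membrane, was at 75.8 TPM in Rep1 and 807 in Rep2, a mean of 441 ± 517 TPM (SD, n = 2) at percentile 97.8. *S100A1*, best known as a regulator of calcium cycling in heart muscle, was at 79.8 and 313 TPM, a mean of 196 ± 165 TPM (SD, n = 2) at percentile 94.6. *S100A6*, also called calcyclin, was at 69.8 and 314 TPM, a mean of 192 ± 173 TPM (SD, n = 2) at percentile 94.5. The values of *S100A1* and *S100A6* lay close together in each library. *S100A16*, a widely expressed member, was at 53.7 and 323 TPM, a mean of 188 ± 190 TPM (SD, n = 2) at percentile 94.3. These percentiles are of the mean, and those within a library were lower in Rep1. They were 88.3 in Rep1 and 99.3 in Rep2 for *S100A10*, and 88.6 and 97.5 for *S100A1*. For *S100A6* they were 87.6 and 97.5, and for *S100A16* 85.3 and 97.6.

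*S100A11*, *S100A4* and *S100A13* followed at lower levels. *S100A11*, which binds annexin A1, was at 17.2 TPM in Rep1 and 225 in Rep2, a mean of 121 ± 147 TPM (SD, n = 2) at percentile 90.9. *S100A4*, which binds non-muscle myosin and is used as a marker of fibroblasts, was at 13.9 and 114 TPM, a mean of 63.9 ± 70.7 TPM (SD, n = 2) at percentile 83.5. *S100A13*, which takes part in the release of FGF1 and interleukin 1 alpha from cells, was at 7.22 and 35.4 TPM, a mean of 21.3 ± 19.9 TPM (SD, n = 2) at percentile 65.2. In all 8 of these members Rep2 was the higher library. Within a library the percentile of *S100A11* was 72.2 in Rep1 and 96.2 in Rep2. That of *S100A4* was 69.3 and 90.9, and that of *S100A13* 60.2 and 72.4.

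The calprotectin genes were at the bottom. *S100A9* was at 2.49 TPM in Rep2 and *S100A8* at 0.440 TPM, and both were listed at 0 in Rep1. A listing at 0 was common at such levels, since among the 200 genes nearest in Rep2 level, 52.5% for *S100A9* and 75.0% for *S100A8* were at 0 in Rep1 too. Neither transcript was detected in Rep1, and the part of sequencing depth in this was not tested. Of the 10 neutrophil genes examined, 9 were listed, with a summed level of 8.12 TPM in Rep1 and 10.7 in Rep2. Of these 9 genes, 8 were at 0 in Rep1 and 3 in Rep2, and *CXCR1*, *CXCR2* and *ELANE* were at 0 in both. *CAMP*, a granule peptide gene, made up the whole Rep1 sum, with 8.12 TPM against 0.867 in Rep2, whereas *LTF* (5.89 TPM), *MPO* (1.91 TPM) and *FPR1* (1.29 TPM) led in Rep2 and were at 0 in Rep1. Of 5 monocyte genes, 4 were listed, with a sum of 69.1 TPM in Rep1 and 358 in Rep2, and *CCR2* was at 0 in both. That sum was made up of *VCAN* (29.7 and 178 TPM), *CD14* (24.6 and 102 TPM) and *LYZ* (14.8 and 77.3 TPM). The part of cells other than monocytes in these values was not tested. *S100A12*, a neighbour of this pair of genes that is also made by neutrophils, was listed at 0 in both libraries.

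**Figure D1:**
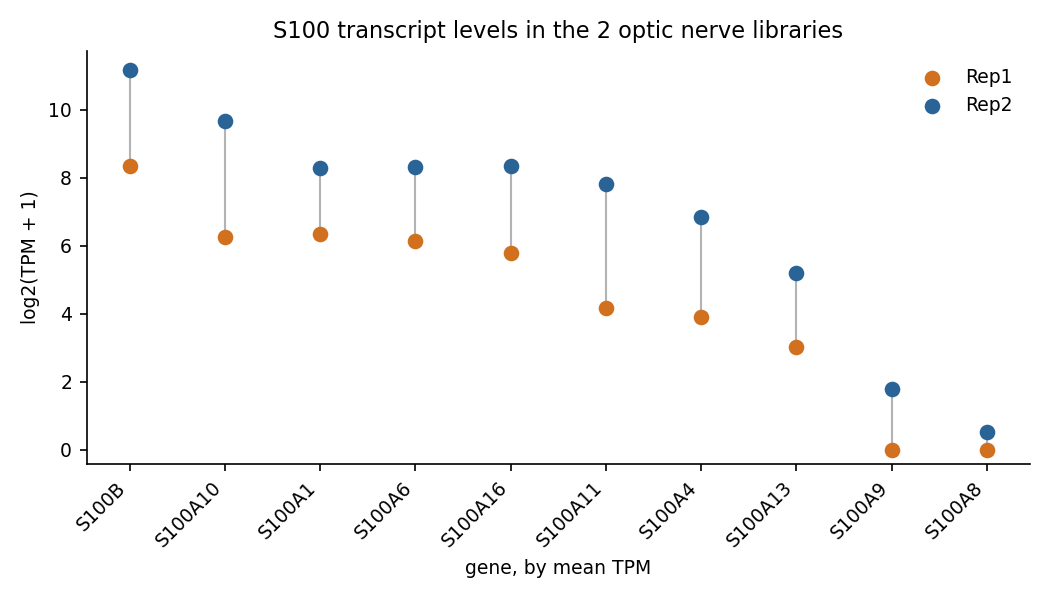
Level of each S100 gene on the log2(TPM + 1) scale in Rep1 (orange) and Rep2 (blue), ordered by mean TPM, with a grey line joining the libraries. *S100B* is the highest in each library, at 323 and 2299 TPM, and *S100A8* and *S100A9* are at 0 in Rep1.

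Read numbers behind the values could be given as lower bounds only. Dividing the ratio of a gene's Rep1 value to its Rep2 value by 17.2, the factor by which a read weighs more in Rep1, leaves the ratio of its read numbers. The smallest whole numbers with that ratio are given here, and the real numbers are these or a multiple of them. For *S100B* they were 287 reads in Rep1 and 35087 in Rep2. The other members at 0 in neither library had at least 1 (*S100A4*) to 52 (*S100A16*) reads in Rep1, and at least 141 (*S100A4*) to 5373 (*S100A16*) in Rep2. For *S100A11* the numbers were at least 2 and 451, and for *S100A13* at least 5 and 421. A low bound does not show that reads were few, so these numbers give no interval and no order of precision among the members, and the absolute depth is unknown.

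The order of the members was mostly shared between the libraries, and is given as values with no test, since the smallest p that an exact sign test (two-sided) allows with 2 libraries is 0.5. Of the 28 pairs among the 8 members above 0 in both libraries, 24 stood in the same order in each and 4 did not. Those 4 all lay among *S100A10*, *S100A1*, *S100A6* and *S100A16*. *S100A10* was above *S100A1* by 1.36 on the log2(TPM + 1) scale in Rep2, but below it by a difference of -0.07 in Rep1, so that the mean difference of 0.65 was smaller than its SD of 1.02. The differences of *S100A1* from *S100A6* (mean 0.09, SD 0.14) and of *S100A6* from *S100A16* (mean 0.17, SD 0.29) were also within their spread. *S100B* was above *S100A10* by 2.08 in Rep1 and 1.51 in Rep2, more than the SD of 0.40. *S100A16* exceeded *S100A11* by a mean of 1.05 (SD 0.76), *S100A11* exceeded *S100A4* by 0.63 (SD 0.49), and *S100A4* exceeded *S100A13* by 1.26 (SD 0.57).

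The make-up of the family can be read within each library, where it does not depend on how the libraries are scaled. Together the 10 members made up 0.0641% of the Rep1 total and 0.443% of the Rep2 total, with sums of 641 and 4433 TPM. *S100B* took 50.5% of the sum in Rep1 and 51.9% in Rep2. Although the sum differed 6.92-fold between the libraries, the share of *S100B* was thus close to the same in each. *S100A10* took 11.8% in Rep1 and 18.2% in Rep2, whereas *S100A1* took 12.5% and 7.06%. *S100A6* (10.9% and 7.08%) and *S100A16* (8.39% and 7.29%) also had the larger share in Rep1, and *S100A11* had the larger share in Rep2 (2.68% and 5.08%). *S100A4* took 2.17% and 2.57%, and *S100A13* took 1.13% and 0.798%.

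**Figure D2:**
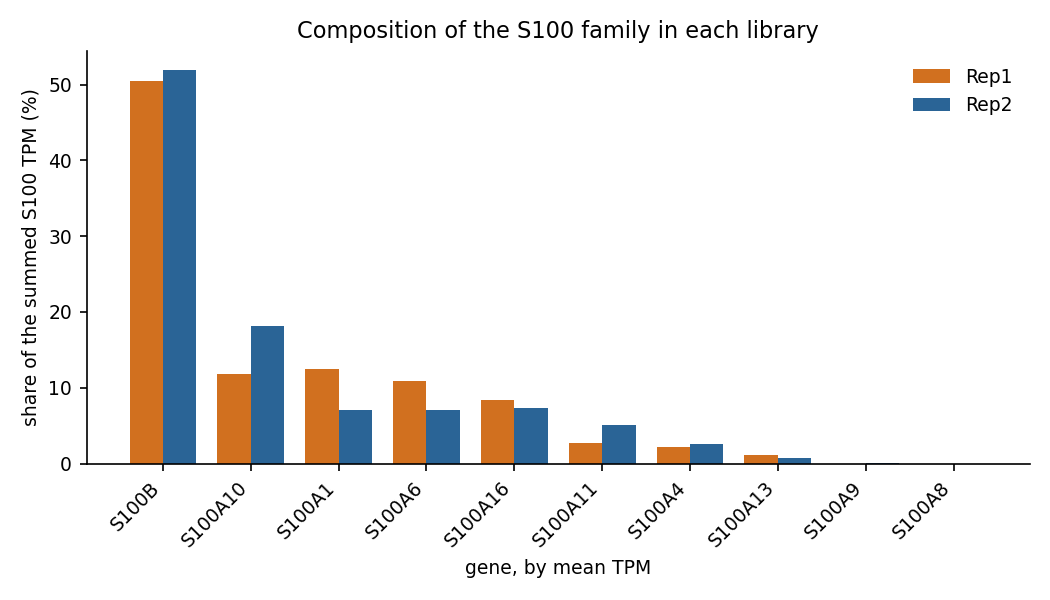
Share of the summed TPM of the 10 S100 genes taken by each gene, in percent, in Rep1 (orange bars) and Rep2 (blue bars), ordered by mean TPM. *S100B* takes 50.5% and 51.9%, whereas *S100A10* is the larger in Rep2 and *S100A1* in Rep1.

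Between the libraries, which hold the same condition, all the S100 genes were lower in Rep1. Taken on the log2(TPM + 1) scale, where differences of low genes come out too small, 9 of the 10 were at least 2-fold lower in Rep1, and this was true of 51.3% of all 14693 genes. None was at least 2-fold higher in Rep1, against 14.8% of all genes. The exception to the first count was *S100A8*, whose 0.440 TPM in Rep2 could not give a 2-fold difference on this scale. The median difference of the members (Rep1 minus Rep2) was -2.36, beside -1.07 over all genes. The difference ran from -3.64 in *S100A11* and -3.39 in *S100A10* to -1.96 in *S100A1* among the 8 members above 0 in both libraries.

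The values were also scaled by the median of ratios, which takes out the shift common to genes above 0 in both libraries. Scaling left 7 of the 10 members at least 2-fold lower in Rep1, with 33.8% of all genes, and none at least 2-fold higher, with 23.7% of all genes. The median of the members was then -1.40, beside -0.38 over all genes. *S100A11* (-2.48) and *S100A10* (-2.21) were still the farthest apart, and *S100A1* (-0.78), *S100A6* (-0.97) and *S100A8* (-0.37) fell within 2-fold. Among all genes at least 2-fold apart, the share that was higher in Rep1 was 22.4% before and 41.2% after scaling. The oligodendrocyte and astrocyte lists had medians of -2.43 and -1.57 as deposited, and the list of 6 fibroblast genes had -3.16.

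**Figure D3:**
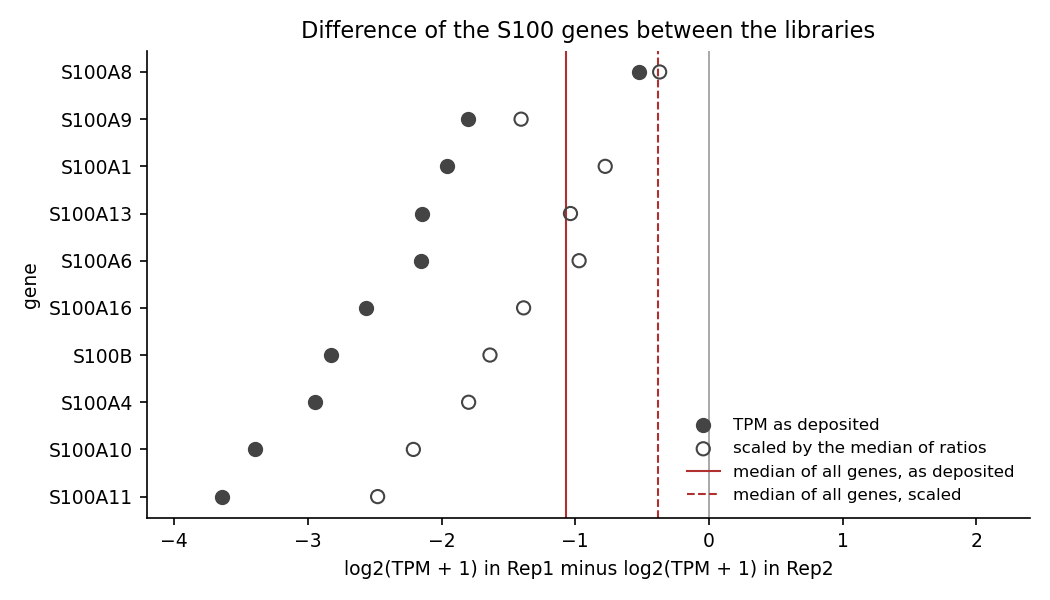
Difference of each S100 gene between Rep1 and Rep2 on the log2(TPM + 1) scale, as deposited (filled points) and scaled by the median of ratios (open points). Red lines give the median over all 14693 genes as deposited (-1.07, solid) and scaled (-0.38, dashed), and all the S100 genes lie below 0 on either scale.

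Of the 10 members, 9 lie on chromosome 1 of Mmul_10, between positions 97428768 and 99095856, in a stretch of 1667 kb that also holds 5 other S100 genes of the table. Neighbours in this stretch had very different levels. *S100A6* (97533171 to 97534795, plus strand) reached 69.8 and 314 TPM, while *S100A5*, which ends 1021 bases before it, was at 0 in Rep1 and 0.162 TPM in Rep2. *S100A16* (97448609 to 97454827, plus strand) reached 53.7 and 323 TPM, while *S100A14*, 1075 bases before it, was at 0 and 0.281 TPM. *S100A8* (97667429 to 97668469, plus strand) and *S100A9* (97696189 to 97699439, minus strand), the lowest members, lie near each other, with *S100A12* between them. *S100A11* (99009076 to 99013662, plus strand) and *S100A10* (99084726 to 99095856, plus strand) had the largest differences between the libraries. They lie at the far end, next to each other among the S100 genes but with 71063 bases between them. *S100A4* is at 97523533 to 97525830 on the plus strand.

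*S100A1* (97428768 to 97433116, minus strand) and *S100A13* (97433172 to 97442995, plus strand) start head to head, and in the RefSeq models only 55 bases part them. This stretch, read from the Mmul_10 genome on the plus strand at chr1:97433117-97433171, is shown because it is the whole interval between the start sites of these members.
S100A1-S100A13 interval: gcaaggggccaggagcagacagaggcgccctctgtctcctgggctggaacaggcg

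It is 69.1% G and C. Of the genes on its sides, *S100A1* was at 11.1 times the TPM of *S100A13* in Rep1 and 8.85 times in Rep2. Their ratio differed 1.25-fold between the libraries. No member overlaps another gene in the annotation except *S100A10*, which shares 238 exonic bases with the uncharacterized gene LOC107000940 on the opposite strand. The library kit does not mark strand, so reads there could come from either gene.

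**Figure D4:**
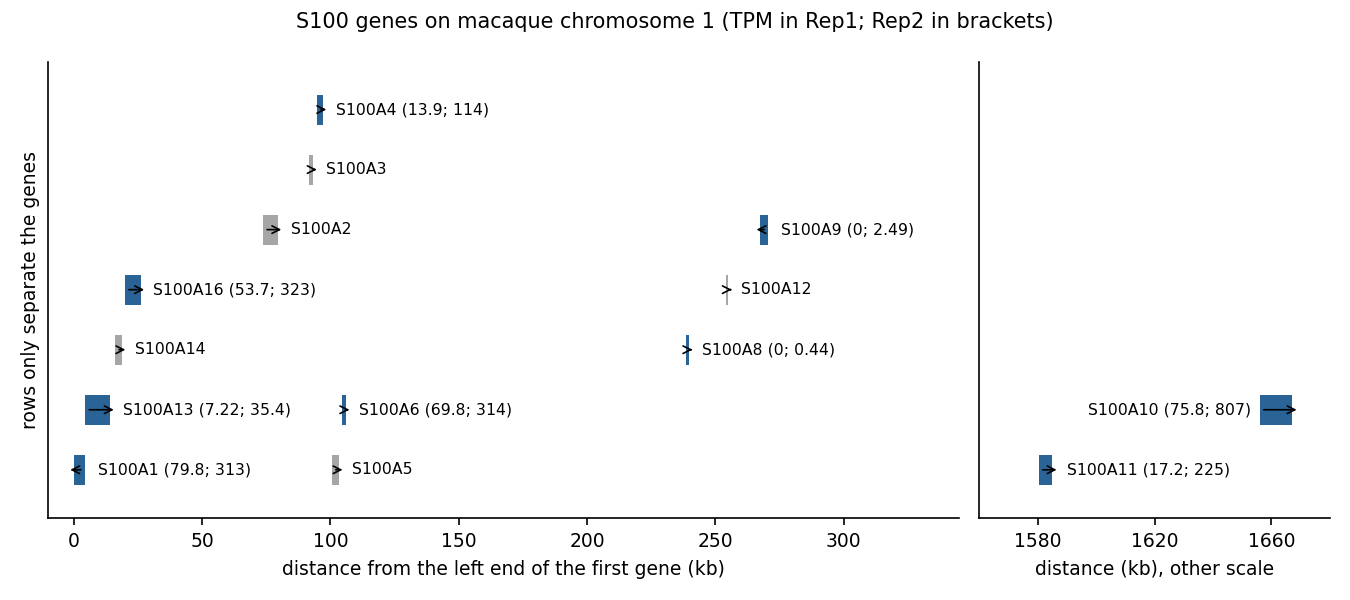
Position of the S100 genes on chromosome 1, as distance in kb from the left end of *S100A1*, with members in blue, other S100 genes in grey and arrows for the direction of transcription. The left and right panels differ in scale and leave out the stretch between them. Brackets give TPM in Rep1 and Rep2, such as 79.8 and 313 for *S100A1* beside 7.22 and 35.4 for *S100A13*.

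The other genes of the family were at or near 0. Of 10 further S100 genes examined, 7 were listed and 5 were above 0, all in Rep2 only. *S100A2* was the highest, at 2.84 TPM, followed by *S100G* at 0.884 TPM and *S100A3* at 0.561 TPM. Of these 5 genes, 1 (*S100A2*) was at least 2-fold lower in Rep1 and none higher, beside 51.3% and 14.8% of all genes. The others stayed below 1 TPM in Rep2, which cannot give a 2-fold difference on the log2(TPM + 1) scale. The 10 members therefore held nearly all of the family's signal, 4433 of 4438 TPM in Rep2. Among the 7 genes of the S100 fused type, large proteins of the skin barrier with an S100 domain, *FLG* (0.0902 TPM) and *TCHH* (0.0833 TPM) were above 0 in Rep2 and all were at 0 in Rep1.

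The genes of intracellular proteins that bind S100 members were all listed and all above 0 in at least 1 library. Of these 18 genes, 12 were at least 2-fold lower in Rep1 and 3 higher, with a median difference of -2.26, whereas after scaling 9 were lower and 4 higher, with a median of -1.09. Over all genes, 51.3% were lower and 14.8% higher as deposited, and 33.8% and 23.7% after scaling. Ratios within a library do not depend on the scaling. *S100B* was at 0.491 times the level of *GFAP*, the astrocyte filament that its protein binds, in Rep1 and at 0.531 times in Rep2. That ratio differed 1.08-fold between the libraries, and for 4.09% of the other 10166 genes above 0 in both libraries the ratio to *S100B* differed as little or less.

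*ANXA2* and *ANXA1* were more abundant than the S100 genes whose proteins they bind. *S100A10* was at 0.224 times the level of *ANXA2* in Rep1 and 0.348 times in Rep2, with *ANXA2* at 339 and 2317 TPM. *S100A11* was at 0.198 times the level of *ANXA1* in Rep1 and 0.268 times in Rep2, with *ANXA1* at 86.9 and 841 TPM. These ratios differed 1.55-fold and 1.36-fold between the libraries, and for 15.5% and 7.79% of the other genes the ratio to the same S100 gene differed as little. *AHNAK*, a giant scaffold held at the membrane by S100A10 and annexin A2, was at 135 and 1036 TPM, so that *S100A10* was at 0.560 and 0.779 times its level, and 11.4% of the other genes differed as little. *S100A6* was above each of its partners in both libraries, by 3.93 and 6.23 times for *ANXA6*, 3.34 and 1.30 times for *CACYBP*, which encodes the calcyclin-binding protein, 9.52 and 3.12 times for *ANXA11*, and 7.35 and 9.50 times for *SUGT1*. The share of other genes whose ratio to *S100A6* differed as little was 25.9% for *ANXA6*, 47.1% for *CACYBP*, 52.5% for *ANXA11* and 14.6% for *SUGT1*.

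Ratios of the remaining partner pairs differed by 1.62-fold to 318-fold. *S100A4* was at 0.130 times the level of *MYH9*, the heavy chain of non-muscle myosin IIA, in Rep1 and 0.748 times in Rep2, and at 0.877 and 1.96 times that of *PPFIBP1*, and 59.4% and 33.7% of the other genes differed as little. *S100A1* was at 1.21 and 8.20 times the level of *PGM1*, with a share of 73.2%. *S100A13* was at 0.255 and 0.157 times the level of *FGF1*, a 1.62-fold difference with a share of 26.9%. Its ratio to *SYT1*, a synaptic vesicle gene at 769 TPM in Rep1 and 11.8 in Rep2, differed 318-fold, with a share of 99.1%. The ratios of *S100B* to *CAPZA1* and *STK38* differed 49.9-fold and 102-fold, with *CAPZA1* and *STK38* higher in Rep1, and the shares were 91.6% and 95.9%. Of the 15 partner pairs with values above 0 in both libraries, 7 ratios differed by less than 2-fold, 2 were at least 2-fold higher in Rep1 and 6 at least 2-fold lower. *MDM2* and *IL1A* were listed at 0 in Rep1.

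**Figure D5:**
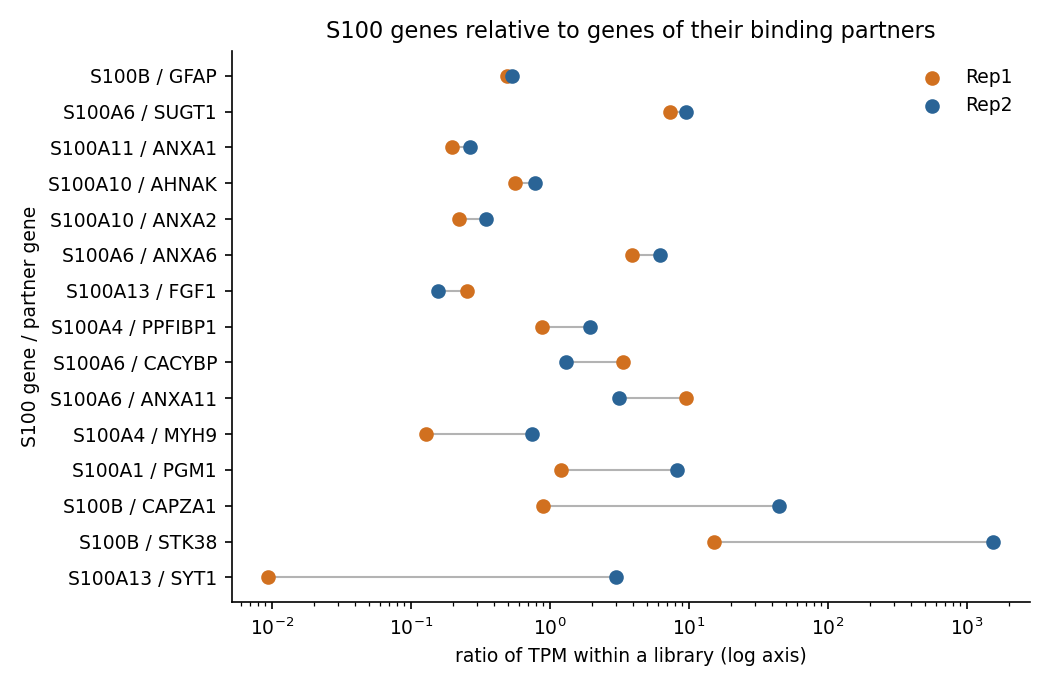
Ratio of the TPM of an S100 gene to that of a gene whose protein binds it, on a log axis, in Rep1 (orange) and Rep2 (blue), for the 15 pairs above 0 in both libraries and sorted by how far the ratio moved. *S100B* to *GFAP* is nearly the same in both libraries (0.491 and 0.531), and *S100A13* to *SYT1* is the farthest apart.

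Released S100 proteins bind receptors on other cells. Of 8 genes for such cell surface partners, 6 were at least 2-fold lower in Rep1 and 1 higher, with a median of -2.92, whereas 5 were lower and 1 higher once scaled, with a median of -1.74. The shares of all genes were 51.3% and 14.8% as deposited, and 33.8% and 23.7% once scaled. *BSG*, which encodes basigin, a partner of S100A9, was at 88.0 TPM in Rep1 and 668 in Rep2. *NPTN*, which encodes neuroplastin, a partner of S100A8, was the gene that was higher in Rep1, at 906 against 91.5 TPM. *FGFR1* was at 33.1 and 259 TPM and *MCAM* at 8.64 and 82.4 TPM. *AGER*, the gene of the receptor for advanced glycation end products and the best known receptor of S100B, was at 0 in Rep1 and 0.713 TPM in Rep2. *TLR4*, a receptor for calprotectin, was at 0.594 and 2.90 TPM. *AGER* and *TLR4* were named after their values were seen.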

How the data were processed

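Macaque optic nerve RNA was converted to cDNA and amplified by the authors (SMARTer v4 kit for low input). Per the paper's methods and the submitters' processing notes, the authors checked reads with FastQC 0.11.9, trimmed them with Trim Galore 0.6.6, aligned them to Mmul_10 with STAR 2.7.1a and counted them per gene with featureCounts 1.5.3. From the counts the authors computed TPM, and the file deposited by them has TPM for 16684 genes in Rep1 and Rep2, which were not pooled. As the titles of the samples cannot be matched to these columns, Rep1 and Rep2 served as unnamed replicates of the only group.

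Differences were taken as log2(TPM + 1) in Rep1 minus Rep2, and no test across genes was run, since there is 1 condition with 2 libraries. Genes above 0 in at least 1 library formed the background. Read numbers were the smallest whole numbers that fit the ratio of a gene's values, divided by the factor of 17.2 between the libraries' values of a read, within 1e-12, with a product under 100000000, which 99.9% of 10168 genes gave. Positions and transcripts came from RefSeq for Mmul_10, and proteins translated from them were aligned with mafft 7.526. Python 3.11, numpy 2.4.6, pandas 2.3.3, Biopython 1.88 and matplotlib 3.10.9 were used, and the scripts were tested on simulated data. The values of some single genes of the lists are not given. The members, lists and naming rule (all members, partners with a stated member, and up to 4 genes of every other list by mean TPM) were chosen with earlier results of these data known. Alternatives changed the pseudocount (0.1), the scaling (median of ratios, or without the 10 most abundant genes), the mean (geometric), the gene sets and the fold limit (4-fold), with 1 TPM added to ratios and each library alone as further ones.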

Additional observations from a re-analysis of the deposited data

How the results depend on the processing

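No paired analysis was possible because there is a single group of libraries. Over 62 results, 128 values came from settings other than a single library, of which 109 stayed within the spread or within 1.5-fold, 19 moved farther and none changed sign. Only differences could change sign, since levels, counts, shares, percentiles and ratios cannot fall below 0. For levels and ratios the spread is the SD of 2 libraries, often as large as the mean, so staying within it says little, and 8 of these 109 values differed by over 1.5-fold. With the geometric mean, *S100A10* moved from 441 to 248 TPM and *S100A11* from 121 to 63.1 TPM. Scaling by the median of ratios moved the median difference of the S100 genes to -1.40, and the number of all genes at least 2-fold apart to 3485 higher and 4972 lower in Rep1. A 4-fold limit gave 1220 and 4513 by its construction. The number of S100 genes at least 2-fold lower in Rep1, 9 as deposited, was 7 after scaling. Of 92 values from a single library, 87 stayed within the spread, but each of 2 libraries lies within 1 SD of their mean, so for levels, shares and ratios this says nothing about stability. The 5 that moved were percentiles in Rep1 alone, those of *S100B* (96.3), *S100A10* (88.3), *S100A16* (85.3), *S100A11* (72.2) and *S100A8* (15.1). *S100A8* and *S100A9* were not detected in Rep1, and the part of sequencing depth in this was not tested. For the other members only lower bounds of the read numbers are known.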

Other observations

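Other genes of the EF-hand type were spread in both directions. Of 23 such genes examined, 22 were listed, 10 were at least 2-fold lower in Rep1 and 3 higher, with a median difference of -0.57, whereas after scaling by the median of ratios 6 were lower and 8 higher, with a median of 0.54. Over all genes, 51.3% were lower and 14.8% higher as deposited, and 33.8% and 23.7% after scaling. With no fold limit 14 were lower and 8 higher in Rep1 as deposited, and the 3 genes given next, taken by mean level, were among those 8. *SPARC*, which encodes a matrix protein with an extracellular EF-hand, was at 9319 TPM in Rep1 and 6872 in Rep2. *CALM2*, which encodes calmodulin, was at 4838 TPM in Rep1 and 1138 in Rep2. *EFHD2* was at 256 TPM in Rep1 and 57.3 in Rep2. No explanation was tested for these values.

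Members were also set against the sums of marker lists of cells that are known to use them. *S100B* was at 0.344 times the sum of the astrocyte list in Rep1 and at 0.431 times in Rep2, a 1.25-fold difference. *GFAP* alone held 658 of 940 TPM of that sum in Rep1 and 4331 of 5333 in Rep2. This largely repeats the ratio to *GFAP*. Of the 8 astrocyte genes 7 were lower in Rep1 and 1 was higher. The amounts differed widely, with *AQP4* at 3.26 and 398 TPM, *ALDOC* at 115 and 291 TPM, and *SLC1A3* at 99.4 and 222 TPM. *MBP* made up nearly all of the oligodendrocyte sum (43721.5 and 199595 TPM). Relative to that sum *S100B* was at 0.00701 times in Rep1 and 0.0108 times in Rep2, a 1.54-fold difference. The share of other genes that differed as little was not computed for these sums. *S100A1* was at 0.0849 and 0.0587 times the astrocyte sum, a 1.45-fold difference. *S100A4* was at 0.00857 times the summed level of the fibroblast list in Rep1 and at 0.00751 times in Rep2, a 1.14-fold difference, with at least 1 read behind its value in Rep1. *DCN* made up 995 TPM of the fibroblast sum in Rep1 and 10504.5 in Rep2. *S100A6* was at 0.0431 and 0.0207 times the same sum, a 2.08-fold difference. *S100A10* was at 2.41 and 7.59 times the sum of the endothelial list, a 3.15-fold difference.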
